A study of Mus musculus with 6 samples.

Results

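The liver disposes of amino nitrogen and burns the carbon of most amino acids, and 37 genes of these pathways were followed here in livers deficient in Ugcg and in wildtype livers. The genes were taken by symbol from a fixed list, and 31 of the 37 had a probe set among the 16331 gene probe sets of the table. The other 6, the urea cycle genes Cps1 and Ass1, the glycine cleavage genes Amt and Gcsh, and the methionine cycle genes Bhmt and Ahcy, were not analysed here. Biotin-labelled cRNA of 6 mouse liver samples was read on Affymetrix arrays: 3 samples were labelled Ugcg-deficient (KO arrays 427, 429 and 431) and 3 wildtype (WT arrays 426, 428 and 430). Ugcg encodes glucosylceramide synthase, whose product is the starting point of most glycosphingolipids. The labels used here name no strain, age, sex or feeding state, no promoter or cell type in which Ugcg was deleted, and do not say whether each array is a separate animal. The p-values therefore cover only the spread among these arrays, and part of it may be technical. All levels are log2 expression values as deposited, and all differences are KO minus WT on the log2 scale.

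In the urea cycle, ammonia and bicarbonate enter as carbamoyl phosphate inside the mitochondrion, join ornithine to form citrulline, and leave the cytosol as urea when arginase splits arginine and gives ornithine back. The nitrogen comes from amino acids through transaminases, which pass it to glutamate and aspartate, and through enzymes that set ammonia free, while the carbon skeletons go to glucose, ketone bodies or the citric acid cycle. Glucagon, cyclic AMP and glucocorticoids raise many of these enzymes in fasting, and most of the urea cycle lies in hepatocytes near the portal vein.

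The arrays were alike in level, with medians from 6.79 to 6.81. The 9 measured hepatocyte markers, among them Alb, Ttr and Apoa1, differed by -0.08 to 0.12 between the genotypes. Ugcg itself read 7.12, 6.70 and 6.68 on the KO arrays and 6.81, 6.85 and 6.87 on the WT arrays (difference -0.01, SE 0.117, limma adjusted p = 0.998). Where its probes lie relative to the deleted part is not known here, so Ugcg gives no check of the genotype labels. WT 430 stood apart by pancreatic transcripts. Relative to their WT means, the 12 measured pancreas markers had medians of -1.03 to -0.904 on the KO arrays, against -0.951 and -0.988 on WT 426 and WT 428 and 1.98 on WT 430, and 11 of the 12 had a negative difference. Of the 10 measured markers of adipose tissue and muscle, 8 had a positive difference, with medians of 0.0244 to 0.0898 on the KO and -0.0496 to 0.037 on the WT arrays. Among them the muscle actin gene Acta1 read 8.48 on KO 427 and 6.28 to 6.63 on the other arrays. KO 431 stood apart by adipose transcripts: the fatty acid carrier gene Fabp4 read 8.99 there and 7.53 to 7.97 on the other arrays, Cfd 7.70 against 6.17 to 6.60, and Adipoq 6.92 against 5.81 to 6.10. The median difference of the 10 markers was 0.373 with all arrays, 0.107 without KO 431 and 0.0692 without KO 427. Their part in the results below was not tested. For the 6 genes whose groups do not overlap, values or their range without these arrays are given.

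No gene of urea synthesis or amino acid breakdown passed the limma test at a Benjamini-Hochberg adjusted p under 0.05 over all probe sets. That threshold was passed by 4 of 16331 probe sets, or 0.0245%. Tat, Oat and Got1 read higher on every KO array than on any WT array, by 1.31-fold to 1.35-fold. Glud1, Tdo2 and Kynu read lower on every KO array, by 0.09 to 0.18 on the log2 scale. At an unadjusted p under 0.05 there were 3 of the 31 genes (9.68%), all higher in KO, against 815 probe sets or 4.99% of all (2.64% higher and 2.35% lower). The groups did not overlap for 6 of the 31 genes (19.4%), against 9.57% of all probe sets. By direction this was 3 genes on the higher side, where all probe sets gave 5.1%, and 3 on the lower side, where they gave 4.47%. Of the 31 genes, 17 had a positive and 14 a negative difference, and the median was 0.0156, beside 0.00586 over all probe sets. In whole liver, fewer cells of a type and less RNA per cell cannot be told apart.

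Tat is tyrosine aminotransferase, which starts tyrosine breakdown by moving its amino group to a keto acid. It had 12.69, 12.91 and 13.24 on KO arrays 427, 429 and 431, against 12.58, 12.53 and 12.44 on WT arrays 426, 428 and 430. The WT arrays lay close together, whereas the KO arrays were spread out, with KO 431 the highest and KO 427 just above the highest WT array. The means were 12.95 ± 0.28 on the KO and 12.52 ± 0.07 on the WT arrays (SD, n = 3 arrays each). The difference was 0.43 or 1.35-fold (SE 0.129, 95% interval 0.14 to 0.72, limma adjusted p = 0.951). Leaving out KO 431, the array with the highest value, gave 0.283. The value was 0.561 without KO 427, 0.390 without WT 430 and 0.521 without both of these.

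Oat, ornithine aminotransferase, links ornithine to glutamate and proline, and in liver it is known for its place around the central vein. It had 13.01, 13.40 and 13.02 on the KO arrays, against 12.80, 12.86 and 12.59 on the WT arrays. KO 429 was the high array here, a different array from the one that was highest for Tat, and the lowest KO array still lay above all 3 WT arrays. The means were 13.14 ± 0.22 on the KO and 12.75 ± 0.14 on the WT arrays (SD, n = 3 arrays each). The difference was 0.39 (SE 0.121, 95% interval 0.11 to 0.66, limma adjusted p = 0.951). Leaving out KO 429 gave 0.258, and the value was 0.450 without KO 431, 0.456 without KO 427, 0.308 without WT 430 and 0.376 without both of these.

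Got1 is the cytosolic aspartate aminotransferase, which moves amino groups between aspartate and glutamate and takes part in the malate-aspartate shuttle. It had 12.05, 11.93 and 12.07 on the KO arrays, against 11.85, 11.41 and 11.63 on the WT arrays. Here the KO arrays were close together and the WT arrays spread out, with WT 426 only a little below the lowest KO array and WT 428 far below it. The means were 12.02 ± 0.07 on the KO and 11.63 ± 0.22 on the WT arrays (SD, n = 3 arrays each). The difference was 0.39 (SE 0.109, 95% interval 0.14 to 0.64, limma adjusted p = 0.888). It was 0.497 without WT 426 and 0.279 without WT 428, and the other single arrays moved it less, to between 0.365 (without KO 431) and 0.431. Without KO 427 and WT 430 together it was 0.373. Leaving out 1 array thus lowered the difference most with KO 431 for Tat, with KO 429 for Oat and with WT 428 for Got1.

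**Figure D1:**
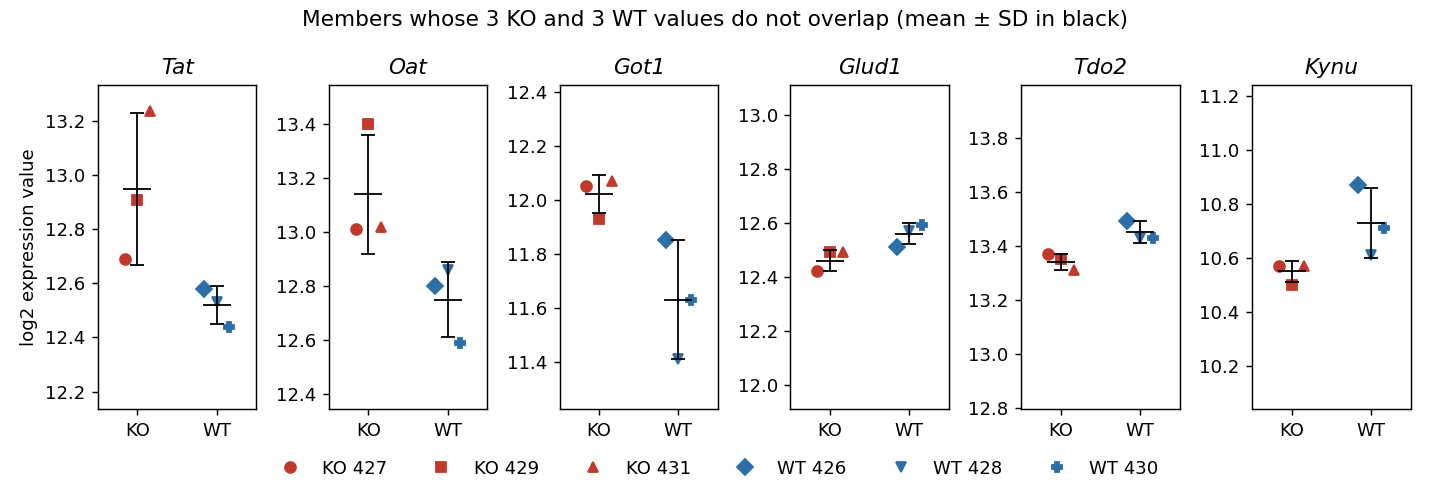
Log2 expression value (vertical axis, 1.2 log2 units in every panel) of the 6 genes whose KO and WT values do not overlap, with KO left of WT, 1 symbol per array, and the mean and SD in black. Tat, Oat and Got1 read higher in KO by 0.39 to 0.43, while Glud1, Tdo2 and Kynu read lower by 0.09 to 0.18.

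The promoters of Tat, Oat and Got1 are shown because these genes had the largest differences and lay on the same side of WT. The RefSeq table (GRCm38.p6) held promoters of 21 of the 31 genes in 22 windows, and each window below is the 250 bases before the annotated start, read on the gene's strand. Capitals mark the CCAAT box, searched on both strands as CCAAT, so that it appears as ATTGG where it lies on the opposite strand; no match overlaps another.
Oat, chr7:132576399-132576648, minus strand: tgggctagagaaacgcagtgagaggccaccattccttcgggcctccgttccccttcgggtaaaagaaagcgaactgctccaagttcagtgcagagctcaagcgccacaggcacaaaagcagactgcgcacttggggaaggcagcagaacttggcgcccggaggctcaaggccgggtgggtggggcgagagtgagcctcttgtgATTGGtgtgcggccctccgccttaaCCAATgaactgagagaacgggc
Tat, chr8:109990186-109990435, plus strand: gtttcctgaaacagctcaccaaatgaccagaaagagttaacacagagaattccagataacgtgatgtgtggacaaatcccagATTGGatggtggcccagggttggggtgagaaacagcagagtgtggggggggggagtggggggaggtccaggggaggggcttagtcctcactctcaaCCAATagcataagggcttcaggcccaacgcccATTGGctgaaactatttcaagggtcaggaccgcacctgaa
Got1, chr19:43524606-43524855, minus strand: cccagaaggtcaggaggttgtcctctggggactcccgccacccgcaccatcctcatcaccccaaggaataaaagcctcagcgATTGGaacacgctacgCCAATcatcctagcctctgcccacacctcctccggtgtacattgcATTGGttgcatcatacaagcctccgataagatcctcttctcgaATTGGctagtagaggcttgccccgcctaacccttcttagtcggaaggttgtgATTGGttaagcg
The CCAAT box occurs 2 times in the Oat window, 3 times in the Tat window and 5 times in the Got1 window. It occurs in 11 of the 22 windows of the measured genes and in 33.8% of the 32851 windows of the table, and it was added to the search after the data were seen. In Got1 the matches begin 168, 152, 107, 64 and 12 bases before the start, and in Tat 168, 72 and 40. The cyclic AMP motif TGACG was found in 1 of the 22 windows, that of Ftcd, and in 17.8% of all. The glucocorticoid motif AGAACA was found in those of Haao and Bckdhb and in 16.1% of all. The forkhead motif TGTTTAC was found in 0 of the 22 and in 3.17% of all, and the TATA box, TATAAA, also added later, in 4 (Ftcd, Hal, Hgd and Tdo2) and in 12.4% of all. None of these last 4 motifs, on either strand, lies in the Oat, Tat or Got1 window, which says only that these letters are absent from these 250 bases.

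Of the urea cycle itself 4 of 6 genes were measured, with differences from -0.19 to 0.12, and the groups of all 4 overlapped. Otc joins carbamoyl phosphate to ornithine to make citrulline, and it had 12.08, 11.99 and 12.25 on the KO arrays, against 12.42, 12.18 and 12.28 on the WT arrays. KO 427 and KO 429 lay below all WT arrays, but KO 431 lay above WT 428, so the groups overlapped. Otc differed by -0.19 (95% interval -0.40 to 0.03, limma adjusted p = 0.982), the most negative of the 31 genes, and this ran from -0.263 without KO 431 to -0.126 without WT 426.

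Arg1, the arginase that releases urea, had 13.59, 13.51 and 13.64 on the KO arrays, against 13.58, 13.51 and 13.52 on the WT arrays. KO 427 lay just above all WT arrays and KO 431 farther above them, but KO 429 lay within the WT range, so the groups overlapped. Arg1 was among the genes with the least spread between arrays of a genotype. The difference was 0.04 with a 95% interval of -0.11 to 0.20. Asl, which cleaves argininosuccinate to arginine and fumarate, differed by 0.02, and Nags, which makes the N-acetylglutamate that switches on carbamoyl phosphate synthesis, by 0.12. The 95% intervals of the 4 genes ran from -0.40 to 0.34, so no difference of 0.5 on the log2 scale, or 1.41-fold, in either direction lay inside any of them.

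Around the cycle, Glud1 is the mitochondrial glutamate dehydrogenase that frees ammonia from glutamate. It had 12.42, 12.49 and 12.49 on the KO arrays, against 12.51, 12.57 and 12.59 on the WT arrays. The groups did not overlap, yet the gap between the nearest arrays was small, and the difference of -0.09 (SE 0.0673, limma adjusted p = 0.982) had an interval of -0.24 to 0.06 that spans 0. It was -0.0671 without KO 427, -0.0723 without WT 430, -0.0488 without both and -0.103 without KO 431. Gls2, the liver glutaminase that releases ammonia from glutamine near the portal vein, had 11.73, 11.62 and 11.82 on the KO arrays and 11.99, 11.43 and 11.42 on the WT arrays. WT 426 was high against the other WT arrays, so the difference of 0.11 was 0.300 without it and 0.0130 without WT 430. Gpt, the cytosolic alanine aminotransferase that serves the exchange of alanine between muscle and liver, differed by 0.05 (95% interval -0.16 to 0.26).

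The 3 later genes of tyrosine breakdown had overlapping groups. Hpd and Hgd carry the keto acid through homogentisate, and Fah performs the last cleavage, which fails in hereditary tyrosinaemia. Hpd had 13.63, 13.81 and 13.72 on the KO arrays, against 13.70, 13.73 and 13.68 on the WT arrays. The KO values lay on both sides of the WT values. Hpd differed by 0.02, Hgd by 0.05 and Fah by -0.05, and their intervals lay between -0.22 and 0.22.

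Of the 4 tryptophan genes, 3 had a negative difference, and 2 of these had groups that did not overlap. That is 50% of the 4 genes, against 4.47% of all probe sets on the lower side. An unadjusted limma p under 0.05 was reached by 0 of the 4. Tdo2 opens the tryptophan ring in the first step of the kynurenine pathway. It had 13.37, 13.35 and 13.31 on the KO arrays, against 13.49, 13.43 and 13.43 on the WT arrays. This gene had the smallest spread of the 31, with a pooled SD of 0.0315 within genotypes, and its difference was -0.11 (SE 0.0656, 95% interval -0.26 to 0.04, limma adjusted p = 0.982). Kynu, the kynureninase that cleaves kynurenine and its hydroxylated form, had 10.57, 10.50 and 10.57 on the KO arrays, against 10.87, 10.61 and 10.71 on the WT arrays. The 3 KO arrays were close together and just below WT 428, and the difference was -0.18 (SE 0.0826, 95% interval -0.37 to 0.00, limma adjusted p = 0.982). Over the refits that left out arrays it stayed between -0.241 and -0.112, and that of Tdo2 between -0.131 and -0.0866. Kmo, which hydroxylates kynurenine, differed by -0.10 with overlapping groups, and Haao, which opens the ring of hydroxyanthranilate on the way to NAD, by 0.07.

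Sds, the serine dehydratase that turns serine into pyruvate and ammonia, varied more between arrays of a genotype than any other of the 31 genes, with a pooled SD of 0.389. It had 10.44, 10.71 and 11.27 on the KO arrays, against 11.27, 11.10 and 10.59 on the WT arrays. KO 431 and WT 426 shared the high end, and KO 427 and WT 430 the low end, so the genotypes covered the same range. The difference of -0.18 (95% interval -0.69 to 0.32) was -0.000163 without KO 427 and -0.414 without KO 431. Sdsl, a gene related to Sds, differed by 0.18 with an interval of -0.05 to 0.40, and Gldc, the glycine decarboxylase of the glycine cleavage system, by 0.07.

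In the methionine cycle and transsulfuration all 4 measured genes had overlapping groups. Gnmt, which uses up S-adenosylmethionine by methylating glycine, had 13.86, 13.74 and 13.76 on the KO arrays, against 13.71, 13.68 and 13.80 on the WT arrays. Cbs, which joins homocysteine and serine to cystathionine, had 10.86, 10.94 and 10.87 on the KO arrays, against 10.92, 10.65 and 10.67 on the WT arrays. All KO arrays read above WT 428 and WT 430 and only WT 426 reached into them, and the difference was 0.14 (95% interval -0.06 to 0.34). Mat1a, which makes S-adenosylmethionine in hepatocytes, differed by -0.05, and Cth, which cleaves cystathionine to cysteine, by 0.00.

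Bckdha, Bckdhb and Dbt encode subunits of the mitochondrial complex that commits the keto acids of leucine, isoleucine and valine to breakdown. Their differences of -0.03, 0.03 and -0.02 all turned sign when some single arrays were left out. Bckdhb had 10.55, 10.81 and 10.86 on the KO arrays, against 10.83, 10.63 and 10.66 on the WT arrays. Bckdha had 10.36, 10.27 and 10.35 on the KO arrays, against 10.47, 10.60 and 10.00 on the WT arrays. WT 430 was thus the low array for Bckdha, and the difference was -0.207 without it.

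All 4 genes of histidine and proline breakdown had a negative difference, from -0.12 to -0.02, and all 4 had overlapping groups. Hal and Uroc1 carry histidine through urocanate, and Ftcd ends that path by passing a formimino group to tetrahydrofolate. Ftcd had 11.52, 11.40 and 11.53 on the KO arrays, against 11.60, 11.56 and 11.45 on the WT arrays. Prodh, the proline dehydrogenase of the mitochondrion, had 10.27, 10.33 and 10.79 on the KO arrays, against 10.76, 10.68 and 10.31 on the WT arrays. As for Sds, the high arrays were KO 431 and WT 426, and the difference of -0.12 was -0.283 without KO 431 and -0.0221 without KO 427. Uroc1 differed by -0.10, Ftcd by -0.05 and Hal by -0.02.

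Over all 31 genes the differences had a median standard error of 0.0893, and the 95% interval reached 0.202 to either side at the median. Over all probe sets these medians were 0.0847 and 0.192. For 27 genes the whole interval lay within 0.5 of 0 on the log2 scale, which is 1.41-fold. The same held for 15469 of all 16331 probe sets. The exceptions among the 31 genes were Tat, Oat and Got1, whose intervals lay above 0 and reached past that bound, and Sds, whose interval spans 0 and reached -0.69.

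**Figure D2:**
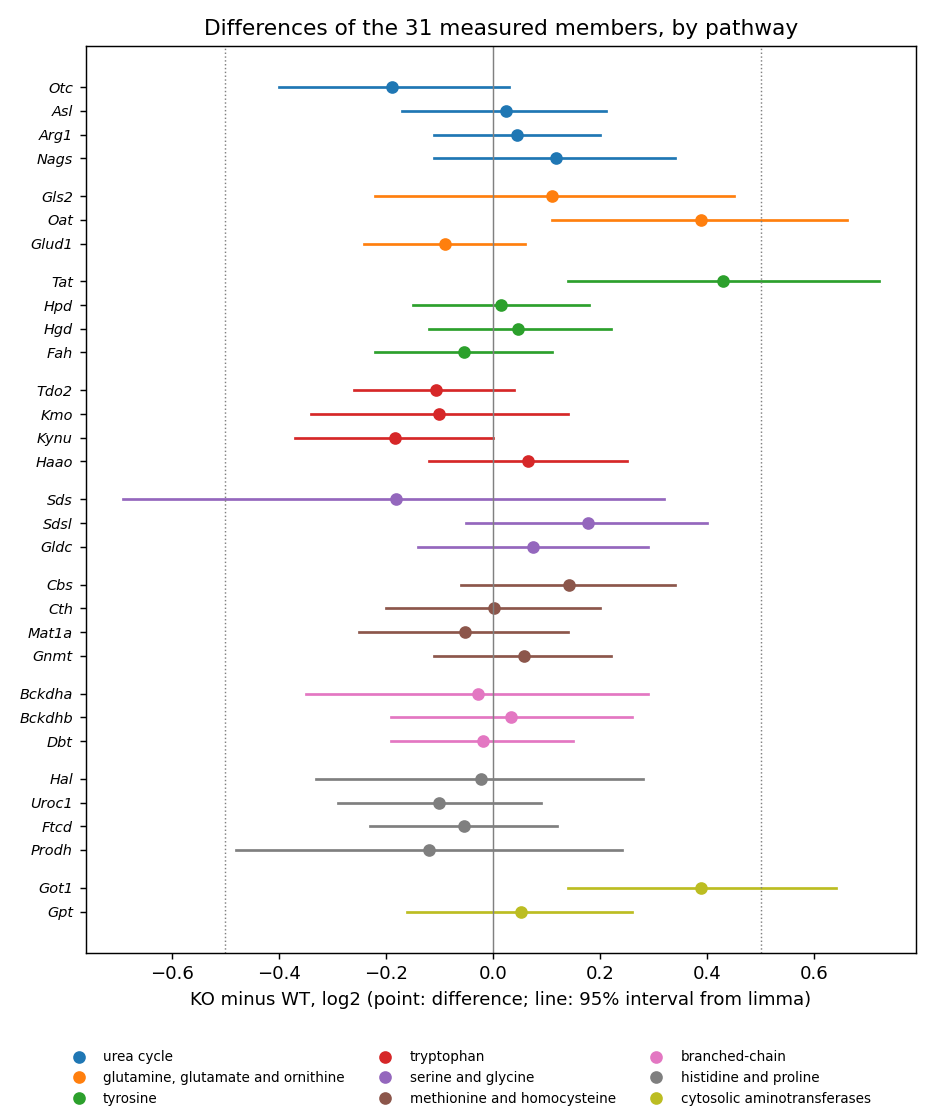
KO minus WT difference on the log2 scale (horizontal axis) of the 31 measured genes, grouped by pathway, with the 95% interval from limma as a line and dotted lines at 0.5 to either side. The intervals of 27 genes lie within the dotted lines, and the intervals of Tat, Oat and Got1 lie above 0.

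Arrays of the same genotype differed from each other in a way that many of these genes shared. WT 426 was the highest WT array for 24 of the 31 genes (77.4%), against 31.2% of all probe sets. KO 431 was the highest KO array for 21 (67.7% against 30.4%), KO 427 the lowest KO array for 18 (58.1% against 34.8%), and WT 430 the lowest WT array for 17 (54.8% against 37.1%). All of this held together for 7 genes, Tat, Sds, Cth, Hal, Uroc1, Prodh and Gpt (22.6% against 3.27% of all probe sets). Among the 3954 probe sets whose mean was at least that of the dimmest of the 31 genes, 8.03, the shares were 29.3% for WT 426, 31.1% for KO 431, 32.5% for KO 427 and 41.5% for WT 430. The arrays were singled out after the values were seen, so these shares are a description.

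The same was counted for 108 other measured genes of amino acid metabolism, mostly enzymes with some transporter genes, which share no gene with the 31. WT 426 was their highest WT array for 49 (45.4%), KO 431 their highest KO array for 41 (38%), KO 427 their lowest KO array for 47 (43.5%) and WT 430 their lowest WT array for 59 (54.6%, close to the 54.8% of the 31 genes), and all of it held together for 10 (9.26%). For the 9 hepatocyte markers WT 426 was highest in 3 and KO 431 in 3. The Kupffer cell markers had 9 of 9 negative differences, with medians of -0.421 to 0.126 on the KO and -0.0648 to 0.0612 on the WT arrays relative to their WT means. KO 431 set this count and sign: without it 8 of 9 differences were positive, with a median of 0.0328, beside -0.118 with all arrays. The median was also -0.043 without WT 426 and -0.275 without KO 429. WT 426 was the highest WT array for 8 of 9, whereas KO 431 was the highest KO array for 0 of 9. Their part in the pattern was not tested. The median of the 31 genes relative to their WT means was -0.0768 on KO 427, 0.0111 on KO 429 and 0.0846 on KO 431, against 0.0833 on WT 426, -0.0273 on WT 428 and -0.0687 on WT 430.

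**Figure D3:**
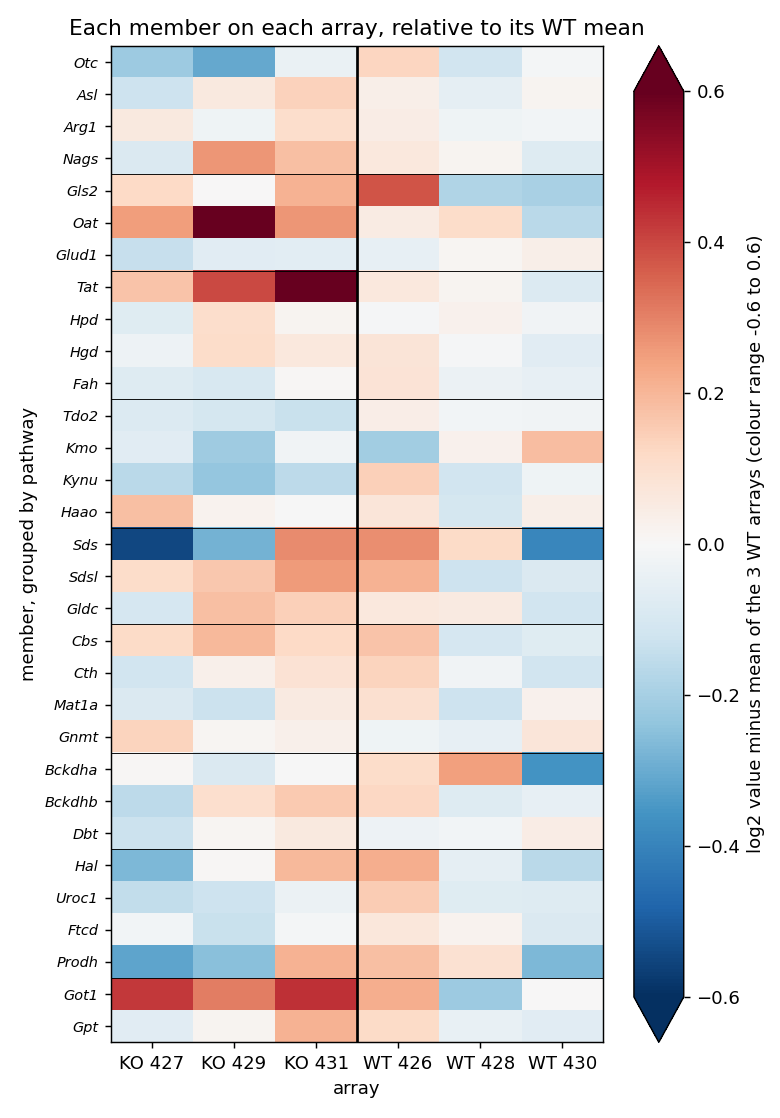
Each of the 31 genes (rows, grouped by pathway) on each array (columns, KO left and WT right of the black line), coloured by its log2 value minus the mean of the 3 WT arrays; the colours end at 0.6 to either side. Red cells gather on KO 431 and WT 426, and Tat, Oat and Got1 are red on all 3 KO arrays.

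The further genes of the same pathways, mostly enzymes with some transporter genes, gave no gene past the threshold either. Of 116 listed, 108 were measured, with 52 positive and 56 negative differences and a median of -0.00423. In limma 0 of them had an adjusted p below 0.05. Before adjustment, 10 of the 108 (9.26%) had a limma p below 0.05, 5 higher and 5 lower. The share over all probe sets was 4.99% (2.64% higher and 2.35% lower). In nitrogen disposal (10 higher, 6 lower) the smallest p-values were those of asparagine synthetase Asns (1.17, with overlapping groups), the mitochondrial aspartate-glutamate carrier gene Slc25a12 (0.23) and the ornithine carrier gene Slc25a15 (0.23). Slc25a12 had 7.95, 7.83 and 8.07 on the KO arrays, against 7.73, 7.79 and 7.64 on the WT arrays and its groups did not overlap. The related carrier gene Slc25a13 differed by 0.04 with overlapping groups. None of these passed (limma adjusted p at least 0.951).

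Among the other genes of phenylalanine, tyrosine, tryptophan and lysine (10 higher, 10 lower), the lysine pathway genes Dhtkd1 (-0.39) and Aldh7a1 (-0.13) and the kynurenine aminotransferase gene Kyat1 (0.21) came first. Of those of serine, glycine, proline, histidine and threonine (10 higher, 11 lower), 5 of 21 had groups that did not overlap (23.8%, against 9.57% of all probe sets). They include the glycerate kinase gene Glyctk (0.39) and the D-amino acid oxidase gene Dao (-0.23). Dao read 6.05 to 6.42 on the 6 arrays, below the array medians of 6.79 to 6.81. Methionine, one-carbon and cysteine genes had 14 higher and 13 lower, led by Csad of taurine synthesis (-0.36), the nicotinamide methyltransferase Nnmt (0.35) and Dmgdh of choline breakdown (-0.27). Other genes of branched-chain and propionate metabolism, not all of them downstream of the complex, had 8 higher and 17 lower with a median of -0.0156. They were led by Aldh6a1 of valine breakdown (-0.28), Acad8 of the same path (-0.18) and Mccc1 of leucine breakdown (-0.12). Amino acid transporters had 19 higher and 13 lower with a median of 0.0161, led by Slc3a1 of cystine transport (0.26), the glutamate transporter gene Slc1a1 (0.12) and the glutamate carrier gene Slc25a22 (0.20). None of these passed (limma adjusted p at least 0.891).

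Receptors and factors known to control amino acid catabolism had 12 higher and 15 lower genes, none past the threshold. The groups did not overlap for 5 of the 27 (18.5%, against 9.57% of all probe sets). The liver factor Foxa1 (-0.76, limma adjusted p = 0.434), the insulin receptor Insr (-0.16) and the glucocorticoid receptor Nr3c1 (-0.13) were on the lower side. Insr read 6.31 to 6.56 on the 6 arrays, below the array medians of 6.79 to 6.81. The glucocorticoid-induced factor Klf15 (0.36, limma adjusted p = 0.888) and Prkar1a, a regulatory subunit of the cyclic AMP-dependent kinase (0.13), were on the higher side. Klf15 is known in mice for its role in hepatic amino acid breakdown, and it had 10.42, 10.54 and 10.38 on the KO arrays, against 10.18, 10.18 and 9.90 on the WT arrays. The coactivator Ppargc1a differed by -0.33 with overlapping groups. Of 24 other measured targets of glucagon, cyclic AMP and glucocorticoids, 13 were higher and 11 lower, with a median of 0.055. In this list G6pc, which releases glucose in gluconeogenesis, rose by 0.93 and passed (limma adjusted p = 0.0379). Slc25a25 (0.83, limma adjusted p = 0.0825) and Tsc22d3 (0.65, limma adjusted p = 0.951) did not pass. These named differences are positive, but the list ran from -1.26 to 0.93. At an unadjusted limma p under 0.05 there were 29.2% of the list, 5 genes higher and 2 lower, against 4.99% of all probe sets. The groups of G6pc did not overlap: it had 12.57, 12.65 and 12.75 on the KO arrays, against 11.69, 11.60 and 11.88 on the WT arrays. The call on G6pc was lost without any 1 array other than WT 430: the limma adjusted p was 0.0617 without KO 427, 0.114 without KO 429, 0.206 without KO 431, 0.169 without WT 426 and 0.0894 without WT 428, and 0.0142 without WT 430, with differences of 0.873 to 1.01.

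Periportal markers outside the 31 genes had 10 of 11 positive differences (90.9%) and a median of 0.181. Over all probe sets 52.5% were positive and the median was 0.00586. The groups did not overlap for 1 of the 11 (9.09%), against 9.57% of all probe sets. Positive differences numbered 7 of 11 without WT 430, and 11 of 11 without KO 431 or without WT 426. Pck1 of gluconeogenesis (0.38), the adhesion protein gene Cdh1 (0.26) and Igfals, which carries insulin-like growth factors in blood (0.18), had the smallest p-values, and none passed (limma adjusted p at least 0.951). With 1 array left out the median of the list was smaller each time, at 0.0508 without WT 430, 0.0687 without WT 426, 0.0696 without KO 427, 0.104 without KO 431, 0.124 without WT 428 and 0.157 without KO 429, and it was 0.0684 without KO 427 and WT 430 together. The periportal genes among the 31 did not follow one sign: Gls2 differed by 0.11, and Sds, Hal and Uroc1 by -0.18, -0.02 and -0.10. Pericentral markers other than Oat had 9 higher and 8 lower with a median of 0.0195, led by the Wnt target gene Tbx3 (0.68), Cyp2c29 (-0.28) and Lgr5 (-0.28). KO 429, the highest array for Oat, was also high for this list, with a median of 0.238 over the WT means, against -0.143 on KO 427, 0.0125 on KO 431 and -0.0749 to 0.0625 on the WT arrays. Without KO 429 only 3 of the 17 were higher and the median was -0.0684, and it was 0.0671 without KO 427, 0.0781 without KO 431 and -0.00195 without WT 430. The 9 measured cholangiocyte markers were high on KO 429 too, with a median of 0.39 over the WT means, against -0.0319 to 0.0495 on the other arrays. The part of either list in the value of Oat, or of the cholangiocyte markers in the periportal list, was not tested.

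**Figure D4:**
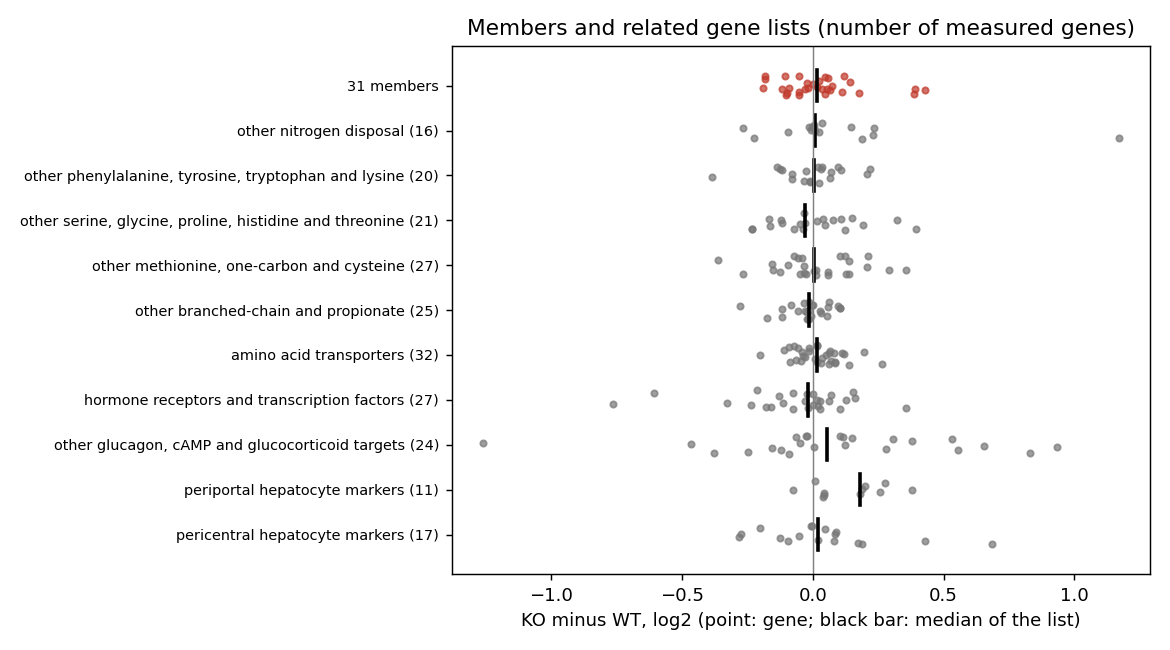
KO minus WT difference on the log2 scale (horizontal axis) of the 31 genes (red) and of the related gene lists (grey), 1 point per gene, with the median of each list as a black bar; the vertical scatter within a list has no meaning. The medians lie near 0, and that of the periportal markers is the farthest from it at 0.181.

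**Figure D5:**
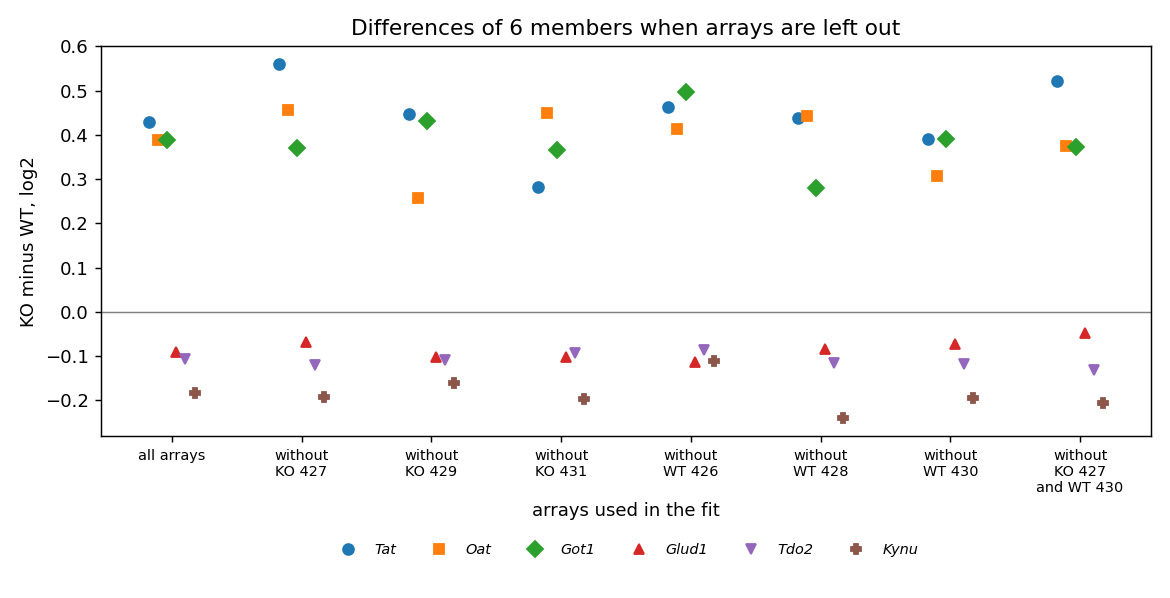
KO minus WT difference on the log2 scale (vertical axis) of the 6 genes whose groups do not overlap, with all arrays and with arrays left out (horizontal axis). The differences of Tat, Oat and Got1 range from 0.258 to 0.561 and stay above 0 in these refits, and those of Glud1, Tdo2 and Kynu range from -0.241 to -0.0488.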

How the data were processed

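Per the labels, total RNA of 6 mouse liver samples was labelled with biotin as cRNA by the standard Affymetrix procedure. The authors' deposited table holds 1 log2 expression value per probe set and array. The log base was read from the values, and the sources used here do not say how the authors corrected background, normalized or summarised. The 64 AFFX controls were left out, and the values were used as deposited, without detection calls. The small number of arrays limits the precision. Row names are Entrez gene numbers: 15644 of 16331 probe sets were named by the platform annotation, and 473 more, among them Gls2, Sds and Sdsl, by the same number in the RefSeq gene table (GRCm38.p6). Over the 15617 in both, 0 symbols differed.

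Genotypes were compared with limma 3.58.1 in R 4.3.3 (lmFit, eBayes, two-sided, 4 residual and 4.85 prior degrees of freedom), adjusted by Benjamini-Hochberg over all 16331 probe sets. The fit was tested on simulated data. An exact permutation test of 3 against 3 cannot go below p = 0.1 and was not used. Genes and lists were chosen with earlier results of these data known. Array values are given for genes with groups that do not overlap or an unadjusted p under 0.05, and per pathway for the largest difference and the highest mean; of each related list the 3 smallest p-values are named. The array values of Gls2, Bckdha, Slc25a12, Klf15 and G6pc, and the values of Slc25a13, Insr, Nr3c1 and Prkar1a, were added after values were seen. The fit was repeated with median centring, with quantile normalization, without probe sets up to the 40th percentile of mean level, with array quality weights, with robust variance and an intensity trend, and with arrays left out. Figures were drawn with matplotlib 3.10.9. A gene that the naming rule picked from a related list is not reported here.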

Additional observations from a re-analysis of the deposited data

How the results depend on the processing

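No gene of the 31 passed an adjusted p under 0.05 in any of the 12 refits with limma, and 3 did so at an unadjusted p under 0.05 (815 of all probe sets). At that unadjusted threshold there were 6 without WT 426 (584 of all), 5 without WT 428 (651), 3 without KO 429 and 4 without each of the other arrays. Of all probe sets 4 passed, 8 with array quality weights, 8 without KO 427 and WT 430 together, and 0 to 4 when 1 array was left out. Genes whose groups do not overlap numbered 6, between 7 and 10 when 1 array was left out, and 13 (41.9%) without KO 427 and WT 430 together. With fewer arrays the share over all probe sets was larger too, at 17.2% to 22.2% without 1 array and 34.6% without both. The median difference of the 31 genes ran from -0.0319 without KO 431 to 0.0465 without WT 426. Of 372 recomputed differences 349 kept their sign and 23, of 9 genes, did not, and the cause was not tested. Hgd was -0.0247 after quantile normalization, and Cth was -0.000326 after median centring and -0.0141 with array quality weights. Without both KO 427 and WT 430, Dbt was 0.0586 and Hal 0.0215. When 1 array was left out, the difference ran from -0.0319 to 0.098 for Asl, -0.0288 to 0.0605 for Hpd, -0.0563 to 0.0687 for Cth and -0.207 to 0.0944 for Bckdha. It ran from -0.0286 to 0.129 for Bckdhb, -0.0573 to 0.0365 for Dbt, -0.131 to 0.102 for Hal and -0.0257 to 0.112 for Gpt. All 31 genes lay above the 40th percentile. No paired analysis was run, because the labels used here do not pair the arrays of the 2 genotypes and the array numbers are not shared.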
